A study of Mus musculus with 8 samples.

Results

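The CpGs described here had an intermediate number of other CpGs with reads around them, and were methylated on part of the DNA molecules of the liver cells. They were selected on measured values by 3 criteria: a coverage of 5 or more reads per mouse in all 8 mice on chromosomes 1 to 19, 5 to 9 other CpGs with a read within 100 bases (the density), and an unweighted mean methylation over all 8 mice of 20 to 80%. The rule found 30356 CpGs, called members below, of 874644 CpGs with that coverage on these chromosomes. CpG islands were not annotated, so a member may lie inside one. The hepatocytes were isolated by liver perfusion from female C57Bl6/J mice of 40 weeks (mid-aged, n = 4) and 10 weeks (young, n = 4), with 1 library per mouse. According to the study's methods both ages were fed a control diet. Both groups share the strain, the sex and the isolation, no gene was altered, and perfusion enriches hepatocytes without removing each of the other liver cells. DNA methylation was measured by reduced representation bisulfite sequencing (RRBS), in which MspI cuts DNA at CCGG and the fragment ends are read after bisulfite treatment, so that only CpGs near such a site are seen. The values are the percent of reads that were methylated at a CpG, computed from the percent and the coverage per strand deposited by the authors on mm10.

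A CpG is a cytosine followed by a guanine, and in mammals most of them carry a methyl group while those in CpG islands, often at gene starts, mostly do not. Intermediate levels can come from cells that differ from each other, from a methylated and an unmethylated parental allele as at imprinted genes, or from a partly methylated border of an island (its shore). A percent over reads cannot tell these states apart, nor cells that differ from alleles that differ.

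The loci below are shown as short windows in which the values can be read CpG by CpG, and they are examples of each kind of result: an intergenic stretch near Padi1, an intron of Inf2 and an exon of Chd3 with lower methylation in mid-aged mice, an intron of Ptk7 with higher methylation, a steady locus in Gm20388 and a variable locus in Hdac9. They are the plus strand of GRCm38 (mm10), written 5' to 3', and capitals mark the member CpGs.
Padi1 (chr4:140858376-140858489): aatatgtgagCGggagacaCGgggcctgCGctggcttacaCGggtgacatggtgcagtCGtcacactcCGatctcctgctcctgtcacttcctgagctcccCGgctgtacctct
Inf2 (chr12:112598010-112598124): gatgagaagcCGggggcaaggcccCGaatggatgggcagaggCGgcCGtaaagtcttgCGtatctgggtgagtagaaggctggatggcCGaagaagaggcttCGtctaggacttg
Chd3 (chr11:69361098-69361213): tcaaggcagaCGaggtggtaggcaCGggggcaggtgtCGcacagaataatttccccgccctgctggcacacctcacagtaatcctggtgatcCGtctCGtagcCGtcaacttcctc
Ptk7 (chr17:46628524-46628696): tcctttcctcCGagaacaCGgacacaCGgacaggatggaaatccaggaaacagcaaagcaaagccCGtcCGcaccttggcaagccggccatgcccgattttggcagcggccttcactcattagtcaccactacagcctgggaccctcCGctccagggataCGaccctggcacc
Gm20388 (chr8:121316206-121316315): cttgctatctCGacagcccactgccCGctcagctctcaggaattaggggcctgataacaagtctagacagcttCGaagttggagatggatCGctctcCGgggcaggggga
Hdac9 (chr12:34714218-34714327): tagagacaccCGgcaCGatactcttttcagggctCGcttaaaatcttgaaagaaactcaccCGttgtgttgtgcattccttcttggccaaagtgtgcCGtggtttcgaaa

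All 7 CpGs of the Padi1 window and all 7 of the Inf2 window were members, as were 6 of 7 at Chd3, 7 of 10 at Ptk7, 5 of 5 at Gm20388 and 5 of 6 at Hdac9. The Padi1, Inf2, Ptk7, Gm20388 and Hdac9 windows each held 1 MspI site (CCGG) and the Chd3 window held 0. Between 47.3% (Hdac9) and 60.5% (Padi1) of the bases were C or G.

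Members were most numerous at the sparse end of their range. Of the 30356, 10639 had a density of 5, 7500 of 6, 5443 of 7, 3973 of 8 and 2801 of 9. By mean methylation they were least common in the middle, with 4552 members at 20 to 30%, 3525 at 30 to 40%, 3480 at 40 to 50%, 4021 at 50 to 60%, 5510 at 60 to 70% and 9268 at 70 to 80%. At the same density 69973 CpGs had a mean under 20% and 95278 a mean over 80%. The limits cut through a continuum: 589 members had a mean of 20 to 21% beside 603 CpGs of the same density at 19 to 20%, and 1213 members had a mean of 79 to 80% beside 1342 CpGs at 80 to 81%.

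**Figure D1:**
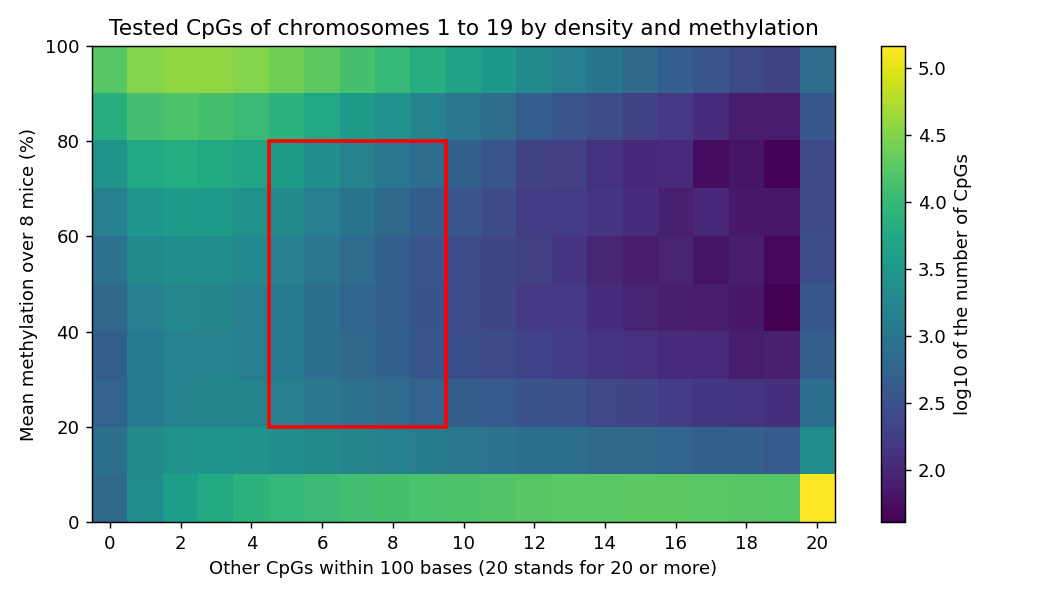
Number of tested CpGs of chromosomes 1 to 19 by density (other CpGs with a read within 100 bases, x axis) and by mean methylation over the 8 mice in percent (y axis), with the color giving the log10 of the count. The red box holds the 30356 members, which lie between a highly methylated sparse group at the upper left and an unmethylated dense group along the bottom.

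The members lay in 8531 genes by gene body or nearest start and on all 19 autosomes. By position 7837 (25.8%) were in a promoter (1500 bases before to 500 after a transcription start), 8767 (28.9%) in an intron, 8087 (26.6%) between genes, 4255 (14%) in a coding exon, 814 (2.68%) in an untranslated region and 596 (1.96%) in an exon of a non-coding transcript. Among CpGs with the same 20 to 80% methylation, 45.7% of the 12634 dense ones (density 10 or more) and 15.9% of the 69111 sparse ones (density 4 or less) were in promoters, so the members stood between these classes. A low dense stretch, meaning a tested CpG with density 10 or more and mean methylation under 20%, lay within 500 bases of 4386 members (14.4%), against 55.3% of the dense and 4.15% of the sparse CpGs with intermediate methylation. Repeats held 8.26% of the members and 8.96% of all tested CpGs of chromosomes 1 to 19.

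The libraries held 46382661 to 118475218 reads summed over CpGs, so that a read over several CpGs enters several times, and the median reads at a member were 35, 66, 55 and 66 in mid-aged mice 1 to 4 and 34, 37, 38 and 56 in young mice 1 to 4. PCR copies were not marked by molecular identifiers, so error estimates from read numbers cover counting error only. Promoters (within 500 bases of the start) of hepatocyte identity genes had a mean methylation of 9.05 to 12.5% in the 8 mice (13 promoters), and those of Kupffer cell and leukocyte genes 68.6 to 76.1% (7 promoters). These were the promoters with 3 or more tested CpGs, from lists of 32 and 22 genes. The leukocyte value was 68.6 to 72.1% in mid-aged and 71.1 to 76.1% in young mice (two-sided exact permutation p = 0.0857), and that of stellate cell genes (10 promoters) 16.6 to 17.6% and 16.1 to 16.8% (two-sided exact permutation p = 0.0857). It was for sinusoidal endothelial genes (9 promoters) 39.2 to 41.6% and for cholangiocyte genes (11 promoters) 25.9 to 28.3% over all mice. These 2 means mix unlike promoters: 4 endothelial ones were over 50% and 4 under 20%, and 3 cholangiocyte ones were over 50% and 5 under 20%. The part of cell composition in the results below was not tested. In a bulk library fewer methylated cells and less methylation per cell cannot be told apart.

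The first comparison asked whether the members as a whole differ between the ages. Mean methylation over all members was 54.7, 55.3, 55.2 and 55.1% in mid-aged mice 1 to 4 and 56.0, 55.5, 55.0 and 54.0% in young mice 1 to 4. The groups overlapped, the difference of mid-aged minus young was -0.04 percentage points (55.1% ± 0.252 against 55.1% ± 0.867, SD, n = 4 each), and the two-sided exact permutation p was 0.943. None of the 5 densities, the 3 ranges of methylation (20 to 40, 40 to 60 and 60 to 80%) or the 6 positions differed by the same test, with differences from -0.64 to 1.04 percentage points and the lowest exact permutation p at 0.114 before adjustment. With 4 against 4 mice this test cannot go below 0.0286.

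The denser CpGs with the same methylation range did differ. Dense CpGs with intermediate methylation had 48.3, 48.0, 48.3 and 48.1% in mid-aged mice and 47.8, 46.0, 44.9 and 44.1% in young mice, a difference of 2.47 percentage points without overlap (exact permutation p = 0.0286, 0.0476 after adjustment over 5 classes of CpGs). In the same family of 5 classes, CpGs of density 5 to 9 with a mean under 20% (0.44 percentage points) and all tested CpGs of chromosomes 1 to 19 (0.33) were also higher in mid-aged mice with the same p and adjusted p. The members minus the dense CpGs in the same mouse gave 6.40 to 7.33 percentage points in mid-aged and 8.18 to 10.2 in young mice, and this contrast was -2.51 percentage points (exact permutation p = 0.0286). Adjusted over the 4 contrasts between classes its p was 0.0571 and did not pass. Against the sparse CpGs with intermediate methylation the contrast was -0.31 percentage points with overlapping groups (exact permutation p = 0.343).

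**Figure D2:**
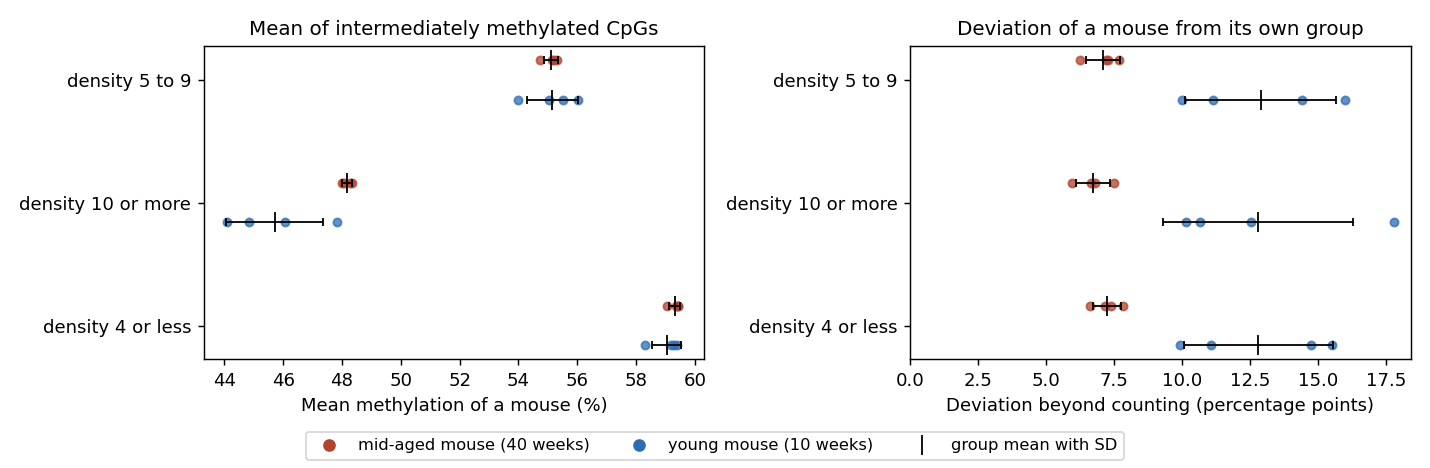
Left, mean methylation of a mouse in percent over CpGs with 20 to 80% mean methylation by density class. Right, the root mean square deviation of a mouse from the other mice of its age over the same CpGs, beyond the part expected from counting reads, in percentage points; points are mice, the vertical mark is the group mean and the bar its SD (n = 4). At density 5 to 9 the means overlap near 55% in both ages, and the young mice deviate by 10.0 to 16 points against 6.24 to 7.69 in mid-aged mice.

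Single members were tested in a quasi-binomial model fitted over all 897285 tested CpGs with a dispersion moderated by limma, and a CpG was called where its Benjamini-Hochberg adjusted p was below 0.05, the group means were 5 or more percentage points apart and neither group's variance reached 0.05. Of the members 305 were called lower in mid-aged mice (1.005%) and 64 were called higher (0.211%). Over all tested CpGs 0.102% were called lower and 0.0615% higher. A CpG that changes by many percentage points tends to have a mean between 20 and 80%, so a share above this background comes in part from the rule. The closer measure is the other intermediate classes, where 397 sparse CpGs (0.574%) were called lower and 61 (0.0883%) higher, and 57 dense CpGs (0.451%) were called lower and 311 (2.46%) higher. These shares were not tested against each other, since neighboring CpGs are not independent. Depth differed as well, with median reads in mid-aged and young mice of 86 and 43 for the dense, 45 and 40 for the sparse CpGs and 55 and 41 for the members.

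Members called lower had a median of 33.0% in mid-aged and 70.7% in young mice, and members called higher 65.6% and 34.0%. All 4 mid-aged mice lay below all 4 young mice at 300 of the 305 and above them at 63 of the 64. Of all members 1211 (3.99%) had every mid-aged mouse below every young mouse and 911 (3.001%) the reverse, against 1.24% and 2.33% of all tested CpGs, 3.33% and 2.61% of the sparse and 2.39% and 8.19% of the dense CpGs with intermediate methylation. The number of calls depended on the libraries: without mid-aged mouse 1, 2, 3 or 4 there were 176, 141, 143 and 147 members called lower and 33, 29, 26 and 26 called higher, and without young mouse 1 the number called higher was 134. In all 8 fits without 1 mouse 111 of the 305 and 19 of the 64 were called again, and limma on M values called 63 lower and 7 higher.

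The 64 members called higher lay in 36 loci, where a locus is a run of members with at most 200 bases between neighbors, and the 305 called lower in 171 loci. No locus held both. Of 313 further members in the loci with a loss, 297 also had a lower mid-aged mean, with a median change of -17.84 percentage points, and of 74 further members in the loci with a gain 71 had a higher mean (median change 13.95). The members of a locus share fragments and reads, so they are not separate observations.

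By distance from a low dense stretch the calls were counted without a test of the placement itself. Of the 4386 members beside a low dense stretch 42 (0.958%) were called higher and 33 (0.752%) lower, and of the other 25970 members 22 (0.0847%) were called higher and 272 (1.05%) lower. Depth differed too: median reads in mid-aged and young mice were 83 and 52 beside such a stretch and 52 and 39 elsewhere. The part of depth in these shares was not tested. Of the 36 loci with a gain 21 held members beside such a stretch, as did 24 of the 171 loci with a loss and 1977 of all 14319 loci. Over all members the level beside a low dense stretch minus the level elsewhere was -17.2, -17.3, -16.9 and -16.8 percentage points in mid-aged and -17.3, -18.3, -17.8 and -18.1 in young mice. The groups did not overlap and differed by 0.84 percentage points (two-sided exact permutation p = 0.0286, 0.0571 adjusted over the 4 contrasts, which did not pass). Without the Phldb2 locus, which holds the most members called higher (13 of the 64), the contrast was 0.74 percentage points (exact permutation p = 0.0571). The counts of calls above include this locus.

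By position 43 of the 64 gains and 72 of the 305 losses were in promoters, 11 and 87 in introns, 8 and 67 in coding exons, and 2 and 60 between genes. Untranslated regions held 0 gains and 16 losses, and exons of non-coding transcripts 0 and 3. As shares of the members of each class, losses were 0.919% in promoters, 0.992% in introns, 1.57% in coding exons and 0.742% between genes. They were 1.97% in untranslated regions and 0.503% in exons of non-coding transcripts, beside 1.005% of all members. Gains were 0.549% of the members in promoters and below the 0.211% of all members in each other class. Differences between these shares were not tested. Median reads in mid-aged and young mice were 64 and 44 in promoters and 50 and 38 between genes. The share called lower was 0.921, 0.907, 0.937, 1.36 and 1.21% at densities 5 to 9, and the share called higher 0.122, 0.173, 0.331, 0.201 and 0.428%. By the bases beside the CpG, members with A or T on both sides and members with C or G on both sides lay 0.19 percentage points further apart in mid-aged than in young mice, with overlapping groups (exact permutation p = 0.743).

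**Figure D3:**
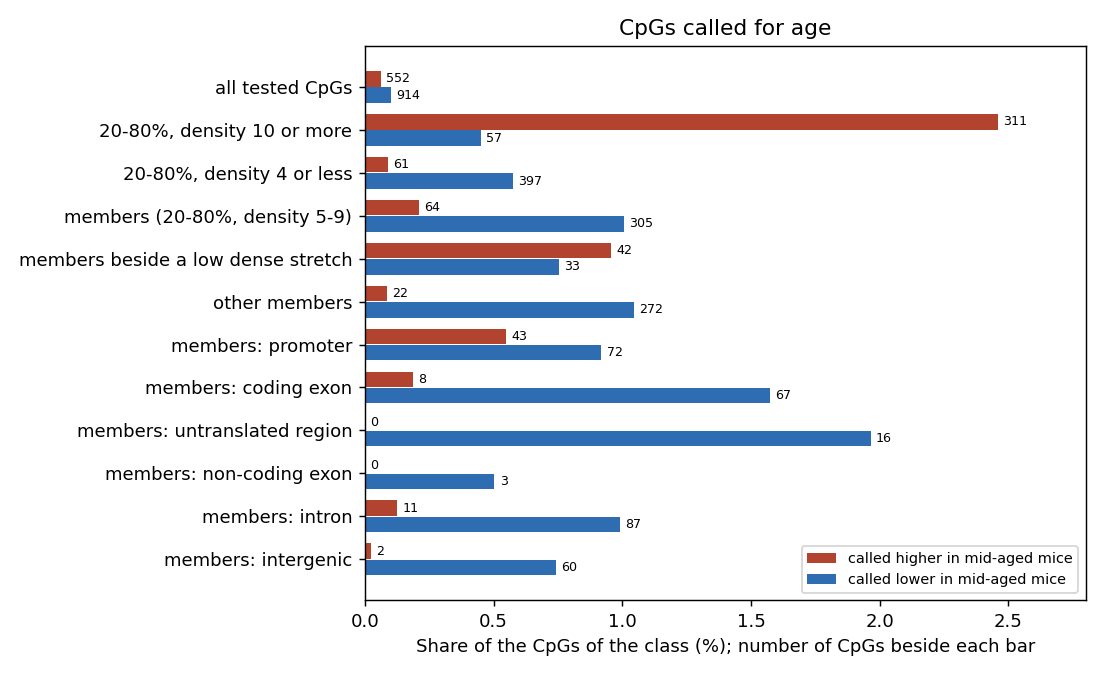
Share of CpGs called higher (red) and lower (blue) in mid-aged mice by class, in percent of the class, with the number of CpGs beside each bar. Members beside a low dense stretch show 42 gains and 33 losses and the other members 22 and 272, while dense CpGs with intermediate methylation show 311 gains and 57 losses.

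The loci named next are the 8 with the most members called higher and 7 of the 8 with the most called lower, so their differences are descriptions and were not tested again. At the CpG of a locus with the lowest quasi-binomial adjusted p, limma on M values gave an adjusted p of 0.149 to 0.260 at Mapk15, C1ql3, Snx15, Meis1 and Prob1. It gave 0.0593 at Ptk7, 0.106 at Arhgap26, 0.139 at Zap70 and 0.221 at Chd3, and less than 0.05 at Phldb2, Mbnl2, Fasn, Padi1, Inf2 and Thrb. The largest gain in number of members was at Phldb2 (ENSMUSG00000033149.17), a gene for a membrane-bound scaffold that helps anchor microtubules at the cell cortex. Its locus covers 16 members on chromosome 16, 45843813 to 45844244, at the start of the gene in the first of 19 exons, and 13 of the 16 were called higher. Locus methylation was 63.5, 56.3, 50.6 and 49.9% in mid-aged and 11.6, 21.1, 24.3 and 17.6% in young mice, without overlap, a difference of 36.42 percentage points (55.1% ± 6.27 against 18.6% ± 5.42, SD, n = 4). Each of its 16 members had a higher mean in mid-aged mice. The lowest adjusted p there was 1.45e-06 in the limma-moderated quasi-binomial test, at position 45844243, which had 41.0% ± 3.28 in mid-aged and 6.30% ± 2.79 in young mice (n = 4) on 178 to 836 reads. Of 15 other tested CpGs within 500 bases, 6 were called higher as well.

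At Ptk7, a receptor-like pseudokinase of the planar cell polarity pathway, 5 of the 7 members were called higher in intron 1 (chromosome 17, 46628534 to 46628685, the window printed above). Its values were 74.4, 69.6, 62.2 and 67.9% in mid-aged and 32.6, 28.1, 30.4 and 40.8% in young mice. From the first to the last capital CG the mid-aged means were 75.9, 63.0, 82.0, 61.5, 84.8, 76.9 and 35.8% and the young means 43.5, 23.0, 36.2, 33.4, 55.5, 32.1 and 7.11%, so the same CpG was highest and the same CpG lowest in both ages. A member there had as few as 6 reads in a mouse. Of 39 other tested CpGs within 500 bases 19 were called higher.

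Where a locus lies in an exon or intron of its longest transcript and also in a promoter window, as at Mapk15, C1ql3, Mbnl2, Snx15 and Meis1, its members were counted as promoter above. At Mapk15, an atypical MAP kinase, all 4 members in coding exon 9 were called higher (76.6% ± 2.42 against 48.5% ± 8.21, SD, n = 4), and at C1ql3, a secreted C1q-like protein, 3 of 4 members in intron 1 (74.3% ± 2.07 against 49.2% ± 7.03). Both lay in longer stretches with gains: 23 of 31 and 18 of 27 other tested CpGs within 500 bases were called higher.

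The other 4 loci with gains had 2 called members each. Mbnl2, a splicing regulator, had 75, 77.5, 65.9 and 74.1% in mid-aged and 55.4, 36.4, 16.7 and 41.6% in young mice over 5 members around exon 5. Snx15, a sorting nexin of endosomal traffic, had 59.6, 69.6, 68.2 and 61.5% against 38.3, 42.8, 47.0 and 44.8% over 8 members. Meis1, a homeobox transcription factor, had 61.8, 48.5, 50.2 and 48.3% against 40.2, 34.3, 28.4 and 26.7% over 11 members around exon 2. The groups did not overlap at any of the 3, but the young mice ran from 16.7 to 55.4% at Mbnl2, where single members had as few as 8 reads in a mouse. At Prob1, on chromosome 18, the locus of 7 members had 57.2% ± 1.83 against 39.5% ± 3.16 (SD, n = 4).

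Among the losses the locus near Padi1 was the tightest. It lies between genes on chromosome 4, 140858386 to 140858478, 12608 bases from the nearest transcription start, that of Padi1 (ENSMUSG00000025329.3), which encodes an enzyme that turns arginine in proteins into citrulline. All 7 members were called lower, with 31.8, 29.3, 31.6 and 31.8% in mid-aged and 73.0, 69.98, 73.8 and 66.9% in young mice, a change of -39.82 percentage points without overlap. Along the printed sequence the mid-aged means were 30.0, 17.8, 46.9, 15, 27.2, 42.3 and 38.6% and the young means 67.6, 64.8, 96.2, 52.9, 59.0, 86.4 and 69.5%. The third capital CG was high in both groups relative to its neighbors, at 46.9% ± 3.62 against 96.2% ± 2.60 (SD, n = 4; adjusted p = 1.81e-05 in the limma-moderated quasi-binomial test). Of the 4 other tested CpGs within 500 bases 3 had low and 1 had high methylation, and none was called. Their averages of 31.9% in mid-aged and 30.7% in young mice therefore describe no single CpG.

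At Inf2, a formin that builds and severs actin filaments, 6 of 7 members were called lower in intron 1 (chromosome 12, 112598020 to 112598113, ENSMUSG00000037679.9). The values were 32.2, 40.6, 43.7 and 36% in mid-aged and 73.3, 76.1, 75.3 and 63.1% in young mice, and the groups did not overlap. From the first capital CG to the last, the mid-aged means were 50.2, 33.8, 49.8, 35.7, 43.4, 31.2 and 22.9% and the young means 87.8, 73.6, 90.4, 65.4, 85.2, 60.5 and 40.6%, each with at least 56 reads in every mouse. The first CpG had an adjusted p of 1.81e-05 in the limma-moderated quasi-binomial test.

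At Thrb, a thyroid hormone receptor, 5 of 7 members were called lower (21% ± 5.34 against 68.3% ± 8.17, SD, n = 4), with as few as 5 reads at a member in a mouse.

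Zap70, a kinase of T cell receptor signaling, had 6 of 11 members called lower in intron 12 (chromosome 1, 36781500 to 36781871), with 61.6, 49.5, 48.2 and 49.4% in mid-aged and 73.5, 80.9, 77.7 and 79.1% in young mice. Chd3, a helicase of the NuRD chromatin remodeling complex, had 5 of 6 called lower in coding exon 8 (chromosome 11, 69361108 to 69361202), with 39.4, 39.7, 44.7 and 40.8% against 70.5, 75.5, 65 and 63.7%. Neither locus had overlapping groups. The promoter levels of leukocyte genes given above stand beside the Zap70 result, and their part in it was not tested.

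Fasn, the fatty acid synthase, had 7 of 8 members called lower around coding exon 4 (49.8, 34.4, 37.8 and 32.6% in mid-aged against 71.9, 84.2, 85.1 and 83.9% in young mice), and Arhgap26, on chromosome 18, 6 of 7 around exon 22 (21.5% ± 5.13 against 57.4% ± 13.5, SD, n = 4). At Arhgap26 the 4 other tested CpGs within 500 bases were all called lower too.

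**Figure D4:**
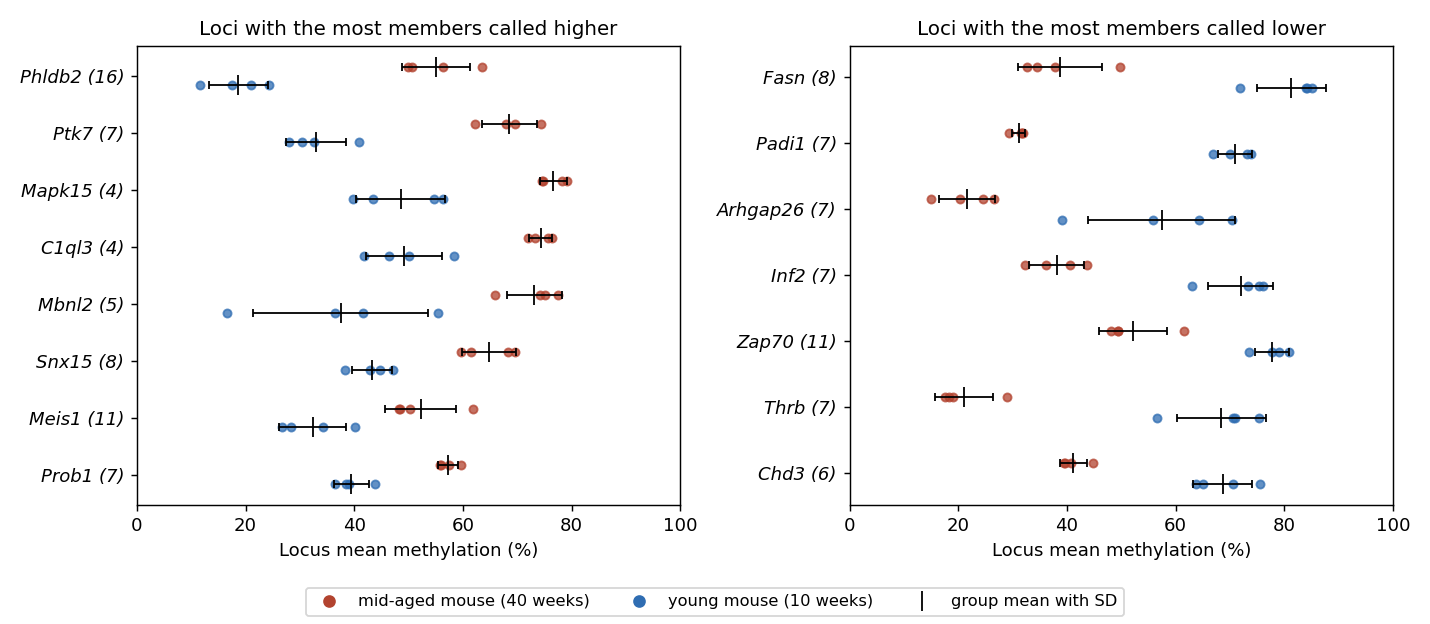
Mean methylation of each locus in percent (x axis, 0 to 100) for the 8 loci with the most members called higher (left) and 7 of the 8 with the most called lower (right) in mid-aged mice, with the number of members in parentheses. Points are mice, and the mark and bar are the group mean and SD (n = 4); no locus shown has overlapping groups, with the mid-aged mice at 49.9 to 63.5% and the young mice at 11.6 to 24.3% at Phldb2, and at 29.3 to 31.8% against 66.9 to 73.8% near Padi1.

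Outside these loci the single members with the largest changes were taken from called members whose groups did not overlap and whose lowest coverage was 10 reads. The gains were at Rfx4, Hapln4, Tent5a, S1pr5, Nrbp1 and Glis2, from 61.42 down to 27.67 percentage points. In the coding exon of S1pr5, a receptor for sphingosine-1-phosphate (chromosome 9, 21244180), the values were 84.1, 79.8, 78.8 and 85.0% in mid-aged and 54.5, 47.9, 58.1 and 53.8% in young mice. At Nrbp1, a pseudokinase (chromosome 5, 31251518, in its last exon), they were 51.5, 58.1, 56.7 and 63.5% against 15, 37.5, 34.3 and 31.7%. In intron 1 of Glis2, a Krüppel-like zinc finger factor (chromosome 16, 4595217), they were 61.0, 63.9, 55.6 and 61.7% against 14.7, 32.9, 40.5 and 43.4%. Young mouse 1 was the lowest young mouse at Nrbp1 and Glis2, on 20 and 34 reads. Limma on M values gave an adjusted p of 0.185 at S1pr5, 0.222 at Nrbp1 and 0.228 at Glis2. It was also above 0.05 at Tent5a, and below 0.05 at Rfx4 and Hapln4.

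The largest losses at single members were at Dysf, Mrpl14, Gm15337, Dpys, Gm27626 and Gas6, from -61.74 to -55.13 percentage points. Limma on M values gave an adjusted p below 0.05 at each of these. The one nearest to Mrpl14, a mitochondrial ribosomal protein, lay in a repeat between genes (chromosome 17, 45708584, 13168 bases from the start). It had 18.2, 14.8, 16.1 and 2.0% in mid-aged and 73.7, 90, 73.7 and 60.6% in young mice (adjusted p = 0.000373 in the limma-moderated quasi-binomial test). The one nearest to Dpys, a dihydropyrimidinase of pyrimidine breakdown in liver, also lay between genes (chromosome 15, 39869169) and had 18.5, 23.4, 24.6 and 39.0% against 95.1, 96.0, 77.3 and 71.2%. Nearest to the predicted gene Gm27626 (chromosome 11, 101133293) the values were 29.2, 14.8, 26.1 and 5.0% against 73.3, 85, 80 and 67.7%, on 15 to 61 reads.

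Among 14 gene lists, synthesis of lipids held the most calls: of its 61 members in 11 genes 10 were called lower and 0 higher, with a median difference of -8.77 percentage points, against 0.44 over all members and 0.21 over all tested CpGs. The share called lower was 16.4%, beside 1.005% of all members. The lists were chosen with earlier results of these data known, so the shares and counts by list, here and below, are descriptions and not tests. Of the 10, 7 were in Fasn and 1 each in Acacb (acetyl-CoA carboxylase of fatty acid oxidation control), Fads1 (a fatty acid desaturase) and Mlxipl (ChREBP, the carbohydrate-responsive activator of lipogenic genes). The 7 in Fasn are those of the locus named above, whose members share reads. Without Fasn the list held 50 members, 3 called lower and a median of -4.80 percentage points. The members of Fads1 averaged 24.8, 27.7, 31.3 and 25.8% in mid-aged and 43.5, 59.1, 47.0 and 44.3% in young mice, and those of Mlxipl 56.8, 59.7, 49.3 and 39.2% against 69.9, 76.3, 69.1 and 64.7%. At Acacb the groups overlapped (54.8% ± 6.24 against 59.8% ± 7.07, SD, n = 4).

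In 5 of the 11 lipid genes every mid-aged mouse was below every young mouse and in 1 above, where over all 8527 gene symbols with members the mean of the members had this pattern in 4.43% (below) and 3.62% (above). The counts below and above were 3 and 0 of 7 genes for the growth axis, 0 and 5 of 55 for developmental transcription factors and 1 and 2 of 34 for imprinted genes, and in the lists other than these and the alcohol and xenobiotic list at most 1 gene each way. The lipid gene with the reverse pattern was Gpam, the first enzyme of triglyceride synthesis, which was picked out after its values were seen: its 4 members had 55.8, 56.3, 57.4 and 53.0% in mid-aged and 39.4, 39.2, 35.7 and 45.0% in young mice, and 0 of them were called. In the growth hormone and IGF list 1 of 82 members (1.22%, near the 1.005% of all members) was called lower, in Igfals, the acid-labile subunit that keeps IGF in the circulation. The 16 members of Igfals averaged 50.4, 41.5, 46.9 and 42.6% against 73.1, 61.7, 72.6 and 55.5%.

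The alcohol and xenobiotic list had 23 members in 9 genes, 0 calls and a median difference of -19.06 percentage points. Of all members 1.005% were called lower and 0.211% higher, so 0 calls among 23 is not a result about this list. All mid-aged mice were below all young mice in 4 of the 9 genes and above in 0, beside the 4.43% and 3.62% of all genes, and these 4 were also named after their values were seen. They were Adh7, an alcohol dehydrogenase (44.5% ± 7.77 against 69.0% ± 13.5, 5 members), the aldehyde dehydrogenases Aldh2 (47.1% ± 6.42 against 64.4% ± 1.65, 6 members) and Aldh3a2 (61.6% ± 6.67 against 81.9% ± 5.89, 1 member), and the drug-metabolizing Cyp1a1 (24.9% ± 8.35 against 47.2% ± 3.33, 1 member; SD, n = 4 throughout). These values passed no test, and a gene with 1 member rests on 1 CpG.

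Imprinted genes, which are expressed mainly from 1 parental allele, held 227 members in 34 genes, which are 7.75% of their tested CpGs, beside 3.47% over all tested CpGs of chromosomes 1 to 19. CpGs were assigned by gene body or nearest start, so a member need not lie where 1 allele is methylated. Over the other lists this share ran from 1.97% to 9.94%, with the highest for Kupffer cell and leukocyte genes, followed after the imprinted genes by cholangiocyte (6.90%) and stellate cell (6.06%) genes. None of the 227 members of imprinted genes was called in the limma-moderated quasi-binomial test and their median difference was -0.29 percentage points. Of all members 1.005% were called lower and 0.211% higher, so lists of this size would hold few calls at those shares. The 43 members of Gnas averaged 61.3% ± 2.24 in mid-aged and 59.4% ± 4.47 in young mice, the 22 of Zrsr1 60.3% ± 1.57 and 62.1% ± 0.886, and the 15 of Meg3 52.4% ± 3.86 and 54.9% ± 7.51 (SD, n = 4). Developmental transcription factors had 214 members in 55 genes, 0 called, a median difference of 1.40 percentage points and a median level of 33.3%.

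The other lists, with 18 to 103 members each, held 0 called members. Beside the 1.005% called lower and 0.211% called higher of all members, 0 is not a result about these lists. Their median differences were 1.36 percentage points for germline genes (28 members), -2.81 for lipid oxidation (19), -4.07 for hepatocyte identity (38), -0.85 for matrix and fibrosis (103), -1.83 for Kupffer cells and leukocytes (31), 4.07 for sinusoidal endothelium (30), 1.58 for stellate cells (39), -0.25 for cholangiocytes (39) and -0.59 for genes linked to metastable methylation (18).

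The next comparison asked how far mice of the same age lay apart. The root mean square deviation of a mouse from the mean of the others of its group over all members, beyond the part expected from counting reads, was 7.69, 6.24, 7.22 and 7.28 percentage points in mid-aged mice 1 to 4 and 16, 14.4, 11.1 and 10.0 in young mice 1 to 4. Every young mouse lay above every mid-aged mouse, at 12.9 ± 2.79 against 7.11 ± 0.617 (SD, n = 4), and the two-sided exact permutation p was 0.0286. Each value was measured against the other mice of its own group and was not recomputed in the relabellings. The values of a group are thus tied, so this p is a description and not a test of 4 independent values. With each CpG thinned to the lowest read number of the 8 mice the difference was -5.76 percentage points. It was not particular to this density, since dense and sparse CpGs with intermediate methylation gave 12.8 against 6.72 and 12.8 against 7.25. Read numbers, total depth and library preparation can move with this measure, and their part beyond counting was not tested.

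The deviations were shared mainly between members close enough for 1 read of 100 bases. Over 10886 pairs of members 1 to 25 bases apart the deviation of a mouse had a Pearson r of 0.356, over 9758 pairs 51 to 100 bases apart 0.171, and over 6712 pairs over 100 and up to 200 bases apart 0.0465. The age difference of neighbors stayed related for longer, with r of 0.606, 0.457 and 0.353 over the same distances, 0.187 at up to 2000 bases and 0.0328 at 5000 to 10000 bases. These correlations are across pairs of CpGs, which share reads, libraries and mice, and are descriptions. The fall beyond 100 bases was seen in both ages, from 0.226 to 0.0424 in mid-aged and from 0.191 to 0.0484 in young mice between pairs 26 to 100 bases and pairs up to 200 bases apart.

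At the level of single loci the extremes were a steady and a variable kind, both selected on the values given. Of 1379 loci with 5 or more members, 110 had a mean between 40 and 60% in each of the 8 mice, and the 8 steadiest were at Itsn1, Adam15, Zwilch, Dnah17, Syngr1, Gm20388, Lpcat1 and Sept1. None of the 110 was in a gene of the imprinted list, which held 19 of the 1379 loci. As 110 of all 1379 loci met this range, a list of 19 would hold few at that share. This absence is therefore not a result about imprinted genes. At Itsn1, an endocytic scaffold, the values were 54.9, 55.9, 59.5 and 58.4% in mid-aged and 57.5, 54.7, 56.4 and 56.1% in young mice (chromosome 16, 91908395 to 91908595, 5 members). In intron 1 of Gm20388, a gene model that spans many other genes, they were 53.6, 51.9, 45.9 and 51.3% against 50.7, 49.5, 51.6 and 50.7% (chromosome 8, 121316216 to 121316304). At Dnah17, a dynein heavy chain, the 7 members around exon 54 had 46.9% ± 2.84 and 48.5% ± 0.957 (SD, n = 4).

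A steady locus mean was made of unequal CpGs. From the first to the last capital CG of the Gm20388 window the mid-aged means were 27.4, 70.6, 33.3, 71.1 and 51.1% and the young means 30.5, 68.8, 27.1, 75.5 and 51.3%, so the same CpGs were high or low in both ages. At Lpcat1, a lysophospholipid acyltransferase, 7 members ranged from 27.5 to 79.7% within 254 bases, and at Sept1, a septin, 11 members ranged from 21.3 to 79.8%. The SD between the members of a locus was between 14 and 22.9 percentage points at the 8 steady loci, against a median of 13.1 over 1285 loci. Those 1285 had 5 or more members and, in every mouse, 50 or more reads summed over the members. In this sum a read over several CpGs enters several times, so a locus can rest on fewer separate reads. The sets are not alike, since the steady loci were held to 40 to 60% in every mouse. A locus mean near 20 or 80% leaves less room for unequal members.

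The most variable loci within an age were a pair in Mest and those at Gstt1, Ttc39a, 4930505K14Rik, Hdac9, Gm48622 and Ccdc162. Mest is an imprinted gene expressed from the paternal allele. Its locus from 30738074 to 30738154 on chromosome 6, at the first exon, had 61.0, 63.9, 82.6 and 86.2% in mid-aged and 78.9, 42.2, 45.3 and 94.0% in young mice. The locus from 30735433 to 30735477 had 77.1, 55.9, 44.6 and 59.5% against 87.4, 51.2, 52.2 and 55.6%. A mouse that was high at one of the pair was not always high at the other, as young mouse 4 had 94.0% at the first and 55.6% at the second, within the same gene and library.

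Within a mouse the Mest CpGs had similar levels. In the first locus the 9 members had means over the mice of 67.4 to 70.6%, an SD between members of 1.13 percentage points, and in young mouse 4 they ran from 93.8 to 94.1%, while the lowest mouse at each member had 39.4 to 45.5%. The median reads per member there were 13 to 36 in mid-aged and 11 to 35 in young mice. The SD between its members within a single mouse was 0.162 to 5.22 percentage points, and 1.82 to 5.79 at the second locus. Members of the other variable loci were less alike within a mouse, with an SD of 2.47 to 9.15 percentage points near 4930505K14Rik, 3.65 to 19.5 at Ccdc162, 5.39 to 13.4 at Hdac9, 5.44 to 26.3 at Gstt1, 7.16 to 32.3 at Ttc39a and 9.30 to 27.1 at Gm48622. Over all 1285 loci the relation between evenness of the members, by their means over the mice, and spread between mice was weak (Spearman coefficient -0.117, Pearson r -0.137 across loci): the SD between mice of an age had a median of 6.39 percentage points at the 74 loci with an SD between members under 5 and of 5.54 at the 106 with an SD of 20 or more.

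At Gstt1, a glutathione transferase of xenobiotic conjugation, 6 members around exon 3 had 11.9, 31.5, 37.8 and 55.4% in mid-aged and 52.6, 64.5, 18.3 and 51.4% in young mice, so both groups spanned over 40 percentage points and overlapped. In intron 3 of Hdac9, a histone deacetylase (chromosome 12, 34714228 to 34714316), the values were 87.6, 82.6, 64.5 and 67.6% against 47.4, 96.9, 70.8 and 81.3%. In exon 9 of Ttc39a, young mouse 2 had 23.0% and the other 7 mice had 68.1 to 81.9%. Young mouse 2 had a median of 5 reads per member there, with members from 0 to 67.7%, and the other mice 15 to 59 reads. The reads at a member of these loci went down to 5 in a mouse, and the SD expected from counting reads at a single member was 6.94 to 9.32 percentage points at the 3 loci.

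**Figure D5:**
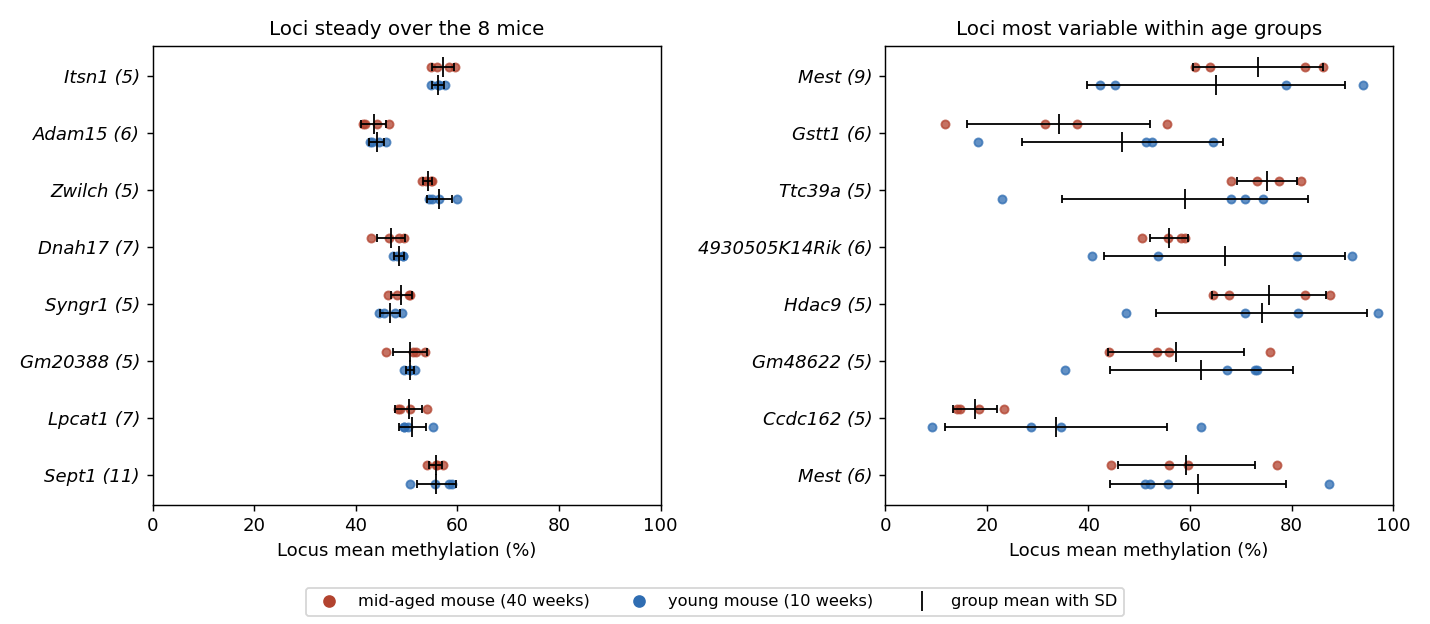
Mean methylation of each locus in percent (x axis, 0 to 100) for the 8 steadiest loci with every mouse at 40 to 60% (left) and the 8 with the largest SD within age groups (right), with the number of members in parentheses. Points are mice, and the mark and bar are the group mean and SD (n = 4); Itsn1 stays within 54.7 to 59.5% in all 8 mice, while the Mest locus with 9 members runs from 42.2 to 94.0%.

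A mean in the middle range did not require each mouse to be there: 10521 of the 30356 members (34.7%) had all 8 mice between 20 and 80%, a share close to that of the dense (36.6%) and sparse (33.0%) CpGs with intermediate methylation. At the 4389 members with 5 or more reads on each strand in every mouse, the strands differed by 0.134 percentage points on average. A single mouse's strand difference had an SD of 18.8 percentage points against 12.1 expected from counting, and the strand difference averaged over mice an SD of 8.22.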

How the data were processed

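Per the labels, hepatocytes of 8 mice gave 1 RRBS library each. For both strands of every CpG (mm10), the authors deposited a percent of methylated reads and a coverage count, without further normalization, made by the pipeline of the DEEP project. Trim Galore 0.4.2, BWA 0.6.2, FastQC, Picard 1.115 and SAMtools 1.3 appear in the submitters' processing notes. For the step that called methylation, the tool was not given in the sources used here. Percent times coverage, rounded, gave the methylated reads, and both strands were added. Age was tested by a quasi-binomial model (limma 3.58.1, R 4.3.3, Python 3.11.15) over 897285 CpGs with X and Y, where the study's methods used limma, kept here as an alternative. Means per mouse were compared by two-sided exact permutation tests. Annotation was GENCODE vM21 and sequence GRCm38. Same-numbered mice did not deviate together, so age groups were unpaired. The members and the gene lists were chosen with earlier results of these data known. Of 8 loci per kind, gains and losses were ranked by called members, steady loci by the SD over mice, and variable loci by the SD within ages, and 1 locus with a loss is not reported here; 6 single members per direction and, per list, the genes with the most called members were also named. GEO's labels do not say that the mice were of separate litters, so p-values measure the spread between these mice. No 2 libraries were copies.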

Additional observations from a re-analysis of the deposited data

Results flagged for a closer look

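In 11 of 152 groups of 4 mice, 1 mouse stood further from the other 3 than Dixon's 95% limit allows, where chance alone gives about 1 in 20 groups. Among means over many members, mid-aged mouse 1 was lowest in introns (55.8% beside 56.3 to 56.3%) and at CpGs flanked by C or G (52.4% beside 53.3 to 53.4%). At the loci with gains or losses, mid-aged mouse 1 was highest at Meis1 (61.8% beside 48.3 to 50.2%) and Zap70 (61.6% beside 48.2 to 49.5%), mid-aged mouse 2 was lowest near Padi1 (29.3% beside 31.6 to 31.8%) and highest at Thrb (29.0% beside 17.6 to 19.1%), and young mouse 1 was lowest at Fasn (71.9% beside 83.9 to 85.1%). Among steady and variable loci, young mouse 3 was highest at Lpcat1 (55.2% beside 49.5 to 50.3%), young mouse 2 was lowest at Ttc39a (23.0% beside 68.1 to 74.3%) and Gm48622 (35.5% beside 67.3 to 73.1%), and young mouse 1 was highest at the second Mest locus (87.4% beside 51.2 to 55.6%).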

How the results depend on the processing

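Fits without 1 mouse gave 26 to 134 members called higher and 141 to 409 called lower, beside 64 and 305. Limma on M values gave 7 and 63, of which 7 and 62 were among the 64 and 305, and density counted over tested CpGs gave 98 higher. Without young mice 1 and 2 together, chosen after seeing the data, 120 were called higher. Replicate numbers did not pair the mice: with a replicate block 187 were called higher and 571 lower, and no value per mouse can pass an exact permutation test of 4 pairs, which left -2.51 percentage points for members against dense CpGs, 0.84 beside against away from a low dense stretch, and -5.79 for the spread. Without young mice 1 and 2 these were -3.12, 0.91 and -4.08 (exact permutation p = 0.0667, the smallest 4 against 2 allows), and without 1 mouse -2.93 to -2.25, 0.70 to 1.02 and -8.11 to -4.89, each with exact permutation p = 0.0571 when a mid-aged mouse was left out. For the spread these p-values are descriptions, since its values within a group are tied. With 10 or more reads the contrast beside a low dense stretch was 0.76 (exact permutation p = 0.114), and without the Phldb2 locus 0.74. The other means lay near 0 and changed sign: all members gave 0.38 with density over tested CpGs, 0.59 without young mice 1 and 2 and -0.42 to 0.25 without 1 mouse; members against sparse CpGs gave 0.17 with density over tested CpGs and 0.0788 without young mice 1 and 2; the contrast by flanking bases gave -0.0357 without young mice 1 and 2 and -0.10 to 0.41 without 1 mouse. The cause was not tested. The 16 loci with gains or losses had no overlap between the groups, so leaving out 1 mouse could not change their direction. At a median of 34 to 66 reads per member and with 4 mice per age, a member without a call is not shown to be unchanged.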
